A study of Mus musculus with 4 samples.

Results

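The 9 receptor genes *Cxcr4*, *Cxcr5*, *Ccr6*, *Ccr7*, *S1pr1*, *S1pr3*, *S1pr4*, *Gpr183* and *P2ry10* were followed in splenic B cells with and without NSD1, a methyltransferase of lysine 36 on histone H3. They were taken by gene symbol from the 55401 genes counted in each library, as receptors that place B cells in the follicle or let them recirculate, and each symbol was found once. Spleens of C57BL/6J mice were sorted for B220+ B cells, and their RNA was sequenced, with 2 libraries of NSD1B WT (Mb1-Cre+ NSD1+/+) and 2 of NSD1B KO (Mb1-Cre+ NSD1fl/fl). Both genotypes therefore carried Mb1-Cre, which is driven from *Cd79a* and acts from early in the B lineage, and the controls were littermates, young adults of either sex according to the Methods. The sources used here do not give the number of mice behind a library, their immunization or the sex of each, so p-values measure the spread between these libraries, which may be technical. In bulk RNA a lower level can come from fewer cells of a type or from less RNA in each cell, and these cannot be told apart here.

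These receptors couple to heterotrimeric G proteins and turn gradients of chemokines or lipids into directed movement. In the spleen, CXCL13 draws B cells into follicles through CXCR5, CCL19 and CCL21 draw them to the border of the T cell zone through CCR7, oxysterols hold them at the outer follicle through the receptor encoded by *Gpr183* (EBI2), and sphingosine-1-phosphate (S1P) keeps marginal zone B cells near the blood and lets B cells leave lymphoid organs. CXCL12, the ligand of CXCR4, retains B lineage cells in the bone marrow and positions dark zone cells in germinal centres, and the study used surface CXCR4 to divide germinal centre B cells into dark and light zone.

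Of the 9 genes, *Cxcr4*, *Gpr183* and *P2ry10* were higher in NSD1B KO, *Ccr6* and *S1pr4* were lower, *Cxcr5*, *Ccr7* and *S1pr1* did not pass the threshold, and *S1pr3* had no count in any library. The threshold was an adjusted p below 0.05 in edgeR's quasi-likelihood test together with a fold change above 1.2. This gives 3 higher and 2 lower of the 8 genes tested, where 37.1% of all 11657 tested genes were higher, 41.1% were lower and 78.3% passed in either direction. The share among the receptors was thus not above that of all genes, and the result lies in which receptors moved and by how much. The NSD1B KO libraries did not overlap the NSD1B WT libraries in any of the 8 tested genes, and neither did they in 88.0% of all tested genes. *Cxcr4* and *Ccr6* passed the filter on low counts only through 1 genotype and so had to differ, and the counts above are no support on their own.

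**Figure D1:**
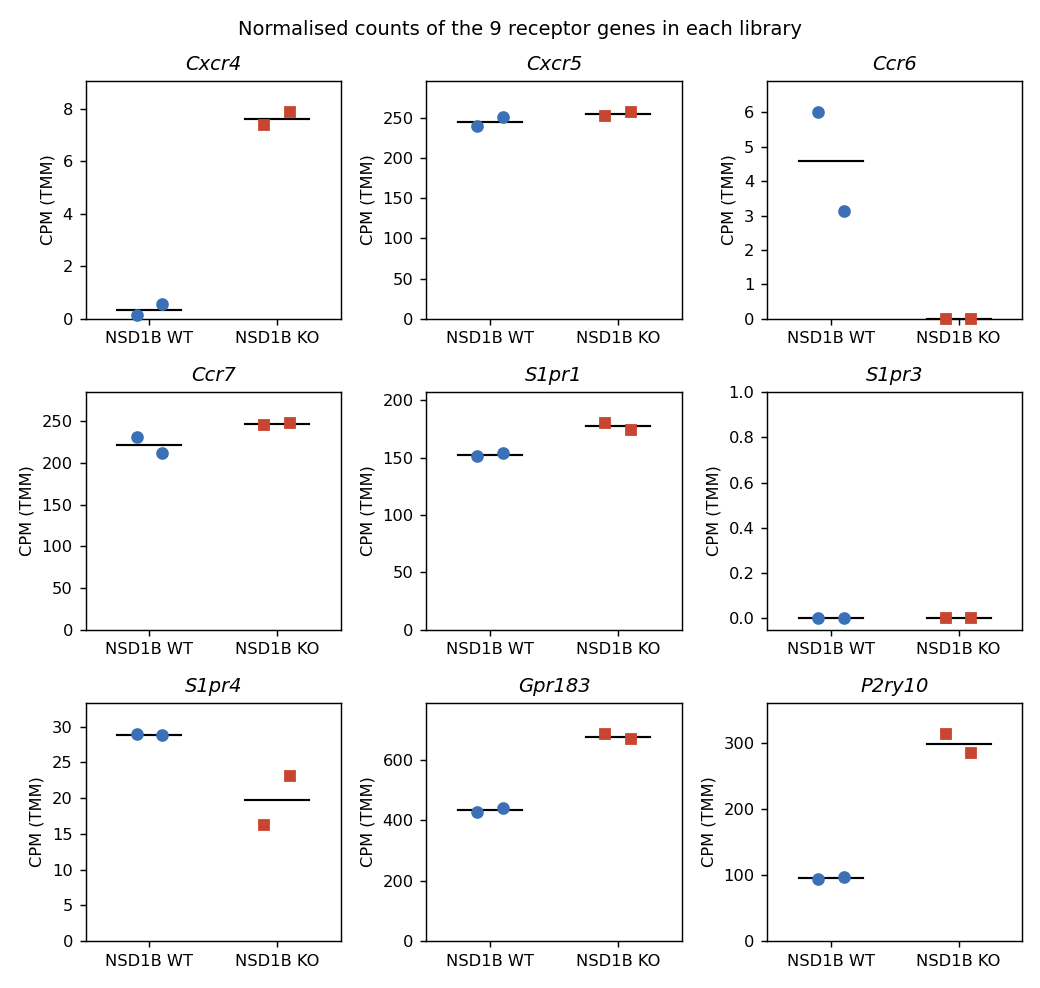
Each panel shows 1 receptor gene, with CPM (counts per 1000000 after TMM scaling between libraries) on the vertical axis, 1 point per library and a line at the mean of each genotype. *Cxcr4*, *Gpr183* and *P2ry10* sat higher in both NSD1B KO libraries, *Ccr6* fell to 0 there, and the levels of *Cxcr5* were 246 CPM and 255 CPM on average.

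The depth and the identity of the libraries bear on every value. Counts on genes numbered 6769118 to 7566834 per library, and 12383 to 13084 genes were counted in each. *Nsd1*, the targeted gene, had 497 and 480 counts in NSD1B WT and 284 and 280 in NSD1B KO, that is 67.5 ± 2.75 CPM and 40.5 ± 1.51 CPM (SD, n = 2), a log2 fold change of -0.74 (SE 0.11, adjusted p = 6.6e-08, edgeR's quasi-likelihood test). Counts per gene cannot show the floxed exons alone. Of 7 B cell markers, 5 were lower in NSD1B KO and none was higher, where 41.1% of all tested genes were lower and 37.1% were higher. The same shares stand beside each marker count below. The summed level of the B cell markers ran from 12567 to 12792 CPM in NSD1B WT and from 11093 to 12088 CPM in NSD1B KO. *Cd79b*, which did not pass the threshold, was the largest part of it, at 6816 CPM and 8150 CPM. *Cd79a*, from which Mb1-Cre is driven, fell from 1986 ± 66.5 CPM to 788 ± 30.1 CPM. *Pax5*, the transcription factor that maintains B cell identity, had 279 and 342 counts against 30 and 31. Of 5 tested erythroid genes all 5 were higher, with summed levels of 35.5 to 39.6 CPM against 1688 to 1943 CPM. Of 6 macrophage or monocyte genes 5 were higher and *Itgam* was lower, with sums of 4594 to 4699 CPM and 5800 to 6149 CPM. *Lyz2* made up most of these sums, at 4486 CPM and 5710 CPM on average, while *Csf1r* had 23 and 27 counts against 375 and 335. Of 3 tested T cell genes 2 were higher and 1 was lower, with sums of 29.6 to 31.3 CPM and 50.3 to 52.3 CPM. Among them *Cd3g* had 125 and 119 counts against 258 and 235, while *Cd4*, *Cd8a* and *Cd28* were at 0 in all 4 libraries. The NK cell genes, 2 higher and 1 lower of 3 tested, summed to 56.5 to 59.8 CPM and 83.1 to 86.4 CPM. Of the dendritic cell markers *Xcr1* had 0 and 0 counts against 36 and 26, and *Itgax*, *Flt3* and *Zbtb46* were at 0 throughout. Of the neutrophil markers *S100a8* had 39 and 28 counts against 0 and 0, *S100a9* had 0 and 0 against 13 and 13, and *Ly6g* and *Mpo* were at 0. The stromal markers *Col1a1*, *Pdgfrb* and *Cdh5* were at 0 in all 4 libraries. The part of these differences in the receptor values was not tested.

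Promoter sequence was at hand in RefSeq (GRCm38.p6) for 6 of the 9 genes, and the windows of the 5 genes past the threshold are shown so that the genes which moved in each direction can be compared at their starts. Each is the 150 bases before the transcription start, on the strand of the gene, in lower case, with capitals where a searched motif matched on either strand. The motifs were the octamer ATGCAAAT bound by OCT factors in B cells, the TATA box TATAAA and the GC box GGGCGG. *Cxcr5*, *Ccr7* and *S1pr1* had no entry. *P2ry10* and *Ccr6* each had a second window, not shown, which held none of the motifs and 3 and 2 CpG dinucleotides. The windows lie at chr1:128592300-128592449 (minus strand) for *Cxcr4*, chr14:121965194-121965343 (minus) for *Gpr183*, chrX:107088342-107088491 (plus) for *P2ry10*, chr17:8235893-8236042 (plus) for *Ccr6*, and chr10:81500138-81500287 (minus) for *S1pr4*.
Cxcr4: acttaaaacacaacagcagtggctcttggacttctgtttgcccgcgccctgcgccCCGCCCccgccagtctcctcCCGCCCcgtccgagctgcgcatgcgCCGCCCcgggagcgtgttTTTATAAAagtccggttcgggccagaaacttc
Gpr183: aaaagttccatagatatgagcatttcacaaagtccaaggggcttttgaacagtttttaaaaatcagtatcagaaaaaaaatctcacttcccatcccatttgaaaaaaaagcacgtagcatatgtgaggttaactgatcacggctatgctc
P2ry10: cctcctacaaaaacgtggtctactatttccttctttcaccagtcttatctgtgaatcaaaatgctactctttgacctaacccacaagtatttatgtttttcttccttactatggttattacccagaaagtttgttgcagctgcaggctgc
Ccr6: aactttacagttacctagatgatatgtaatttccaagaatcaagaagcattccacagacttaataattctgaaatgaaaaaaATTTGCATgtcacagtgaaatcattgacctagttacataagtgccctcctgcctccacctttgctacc
S1pr4: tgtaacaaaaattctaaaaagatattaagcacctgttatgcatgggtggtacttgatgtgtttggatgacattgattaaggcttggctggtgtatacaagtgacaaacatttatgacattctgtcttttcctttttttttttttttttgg
The *Cxcr4* window held 3 GC boxes, a pair of overlapping TATA matches 32 to 27 and 30 to 25 bases before the start, and 15 CpG dinucleotides, against a median of 4 over all windows. The *Ccr6* window held an octamer 68 to 61 bases before the start and 0 CpG. No searched motif was found in the windows of *Gpr183*, *P2ry10* and *S1pr4*, which held 2, 1 and 0 CpG. Over all 32851 windows of this length, 0.998% held the octamer, 7.57% a TATA box and 28.6% a GC box. The genes that were higher thus shared none of these motifs in these windows, and a match is a description of the letters, not of a bound site.

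*Cxcr4* lies at chr1:128588199-128592293 on the minus strand (mm10, GENCODE M21) and encodes the receptor for CXCL12. It had 1 and 4 counts in the NSD1B WT libraries and 53 and 53 in the NSD1B KO libraries, that is 0.140 and 0.546 CPM against 7.36 and 7.87 CPM. Both NSD1B KO libraries were far above both NSD1B WT libraries, in which the gene was barely counted. The means were 0.343 ± 0.288 CPM and 7.61 ± 0.361 CPM (SD, n = 2), with a log2 fold change of 4.39 (SE 0.52, adjusted p = 7.7e-11, edgeR's quasi-likelihood test). From the raw counts, 106 against 5, the ratio corrected for library size was 22.0, with a 95% counting interval of 9.14 to 69.2 that covers counting error only. The fold rests on the 5 counts of NSD1B WT. Without NSD1B WT replicate 1 the log2 fold change was 3.79, and without replicate 2 it was 5.62, which is 13.8-fold and 49.2-fold. The gene belonged to the lowest of 4 equal groups of genes by mean level, in which the median level was 2.48 CPM, 1457 of 2915 genes were at 0 in 1 genotype and the median size of the log2 fold change was 3.61.

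Since CXCR4 marks dark zone cells, the germinal centre markers of the same libraries are set beside it. Of 6 germinal centre genes 4 were tested, of which 1 was higher and 3 were lower, and the summed level of the whole list was 39.1 to 43.9 CPM in NSD1B WT and 13.5 to 15.7 CPM in NSD1B KO. *Bcl6*, a repressor needed for germinal centres, had 34 and 35 counts against 112 and 91. The part of germinal centre cells in the level of *Cxcr4* was not tested.

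The genes whose level ran most like that of *Cxcr4* over the 4 libraries, by Euclidean distance of log2 CPM, were *Cacna1a* (distance 0.228), *Rhbdd2* (0.581) and *Ccnk* (0.585). *Cacna1a*, which encodes a subunit of a voltage-gated calcium channel, had 1 and 5 counts in NSD1B WT and 52 and 55 in NSD1B KO. *Ccnk*, which encodes cyclin K, had 1 and 3 against 47 and 37. The likeness is therefore one of 1 to 5 counts in NSD1B WT and 37 to 66 in NSD1B KO, over 2 libraries a genotype.

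*Cxcr5*, at chr9:44511787-44561877 (minus), encodes the receptor for CXCL13 that draws B cells into follicles. It had 1717 and 1843 counts in NSD1B WT and 1821 and 1736 in NSD1B KO, with levels of 246 ± 8.33 CPM and 255 ± 3.46 CPM. The levels differed by little more than the spread of the libraries. The log2 fold change was 0.05 (SE 0.08, 95% interval -0.11 to 0.22, adjusted p = 0.542, edgeR's quasi-likelihood test), and it was -0.02 when libraries were scaled by size alone. It was 0.41 (adjusted p = 2.4e-06, edgeR's quasi-likelihood test), past the threshold, once a trend of fold change with exon length and GC content was removed, which moved the median of all tested genes from -0.10 to 0.08. *Cxcr5* shares 110 exon bases with *Bcl9l* on the opposite strand, and the strand setting of the counting is not given in the sources used here. Of 4 follicular B markers 3 were higher and 1 was lower, with sums of 1342 to 1347 CPM in NSD1B WT and 1961 to 2098.5 CPM in NSD1B KO. The lower one, *Fcer2a*, had 134 and 172 counts against 0 and 0 and passed the filter only through NSD1B WT. The part of follicular cells in the level of *Cxcr5* was not tested.

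*Ccr7*, at chr11:99144196-99155077 (minus), encodes the receptor for CCL19 and CCL21. It had 1654 and 1549 counts in NSD1B WT and 1771 and 1670 in NSD1B KO, that is 221 ± 13.8 CPM and 247 ± 1.44 CPM. Both NSD1B KO libraries were above both NSD1B WT libraries by a small margin. The log2 fold change of 0.16 (SE 0.08, 95% interval -0.01 to 0.32) did not pass, with an adjusted p of 0.0733 in edgeR's quasi-likelihood test. With the trend in length and GC content removed it was 0.57 (adjusted p = 2.1e-09, edgeR's quasi-likelihood test) and passed.

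*Ccr6*, at chr17:8236043-8257141 (plus), encodes the receptor for CCL20, which B cells carry in mucosal follicles and which memory B cells also express. It had 43 and 23 counts in NSD1B WT and 0 and 0 in NSD1B KO. The level of 4.58 ± 2.03 CPM in NSD1B WT fell at least 21.2-fold, against a limit of 3 counts over the NSD1B KO libraries, which is 0.215 CPM (adjusted p = 5.3e-10, edgeR's quasi-likelihood test). *Ccr6* was also in the lowest of the 4 groups by level, where a gene at 0 in 1 genotype was common, as given for *Cxcr4*. The NSD1B WT libraries themselves differed, and the bound on the log2 scale was -3.84 without NSD1B WT replicate 1 and -4.78 without replicate 2. It was -3.36 and -3.45 without NSD1B KO replicate 1 and 2, where the limit of 3 counts falls on 1 library.

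**Figure D2:**
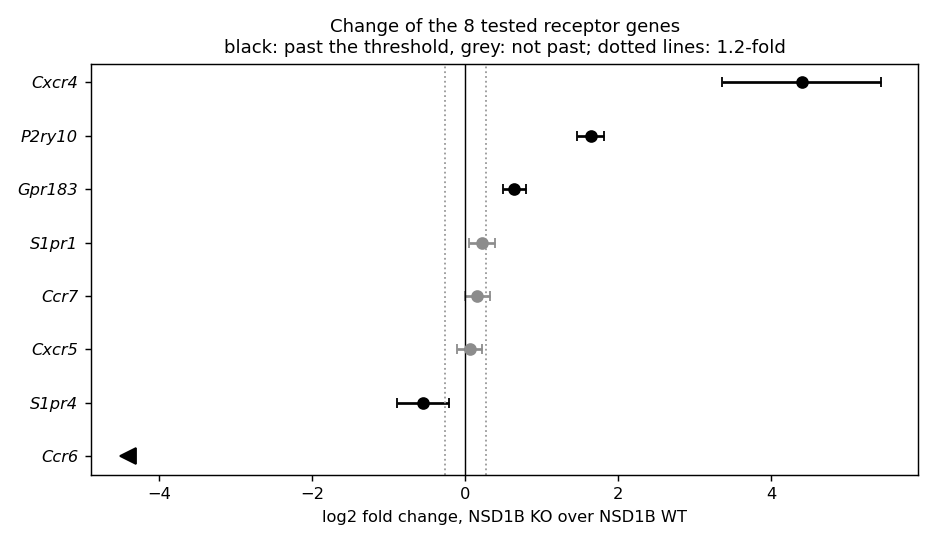
Points are log2 fold changes of NSD1B KO over NSD1B WT from edgeR for the 8 tested receptor genes, bars are 95% intervals, black marks genes past the threshold, and the triangle of *Ccr6* is a bound with no interval. *Cxcr4* at 4.39 had the widest interval, 3.36 to 5.43, and *Gpr183* and *P2ry10* had narrow ones.

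*S1pr1*, at chr3:115710433-115715072 (minus), encodes the receptor that lets lymphocytes leave lymphoid organs and that holds marginal zone B cells in place. It had 1082 and 1129 counts in NSD1B WT and 1298 and 1175 in NSD1B KO, that is 153 ± 2.12 CPM and 177 ± 4.08 CPM. Both NSD1B KO libraries were above both NSD1B WT libraries. The difference of 1.16-fold (95% interval 1.03 to 1.31, log2 fold change 0.22, SE 0.08, adjusted p = 0.0182, edgeR's quasi-likelihood test) stayed under the limit of 1.2-fold, so *S1pr1* is not counted as changed. With the trend in length and GC content removed it was 0.40 on the log2 scale (adjusted p = 8.4e-06, edgeR's quasi-likelihood test) and passed.

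*S1pr4*, a single-exon gene at chr10:81497747-81500132 (minus), encodes an S1P receptor found mainly on blood cells. It had 207 and 211 counts in NSD1B WT and 117 and 156 in NSD1B KO, that is 28.9 and 28.8 CPM against 16.2 and 23.2 CPM. The NSD1B WT libraries were nearly equal, while the NSD1B KO libraries differed from each other by more than the nearer of them did from NSD1B WT. The means were 28.9 ± 0.0766 CPM and 19.7 ± 4.89 CPM, 1.47-fold lower in NSD1B KO, with a log2 fold change of -0.56 (SE 0.17, adjusted p = 0.00235, edgeR's quasi-likelihood test). The call depended on NSD1B KO replicate 1, without which the log2 fold change was -0.32 (adjusted p = 0.0909, edgeR), and on the treatment of gene composition, since it was -0.12 (adjusted p = 0.513, edgeR) once the trend of fold change with exon length and GC content was removed.

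*S1pr3*, at chr13:51408639-51422797 (plus), encodes an S1P receptor that marginal zone B cells are known to carry. It had 0 counts in all 4 libraries, which allows up to 0.207 CPM in NSD1B WT and 0.215 CPM in NSD1B KO, and it was not tested. Marginal zone markers were present beside it. Of 7 such markers 4 were lower in NSD1B KO and 1 was higher, with sums of 536 to 540 CPM against 293 to 305 CPM. *Cr2*, which encodes the complement receptor CD21, had 304 and 277 counts against 17 and 26. The part of marginal zone cells in the levels of *S1pr1* and *S1pr4* was not tested. *S1pr3* is 3.79 Mb from *Nsd1* on the same chromosome, and of the 9 genes it alone shares that chromosome.

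*Gpr183*, at chr14:121952551-121965195 (minus), encodes EBI2, the receptor for oxysterols that moves activated B cells to the outer follicle and is lowered when they enter germinal centres. It had 3066 and 3233 counts in NSD1B WT and 4940 and 4510 in NSD1B KO, more than any other of the 9 genes. The groups were well apart, at 435 ± 9.27 CPM and 678 ± 11.5 CPM. The difference was 1.56-fold (log2 fold change 0.64, SE 0.08, adjusted p = 1.5e-10, edgeR's quasi-likelihood test) and ran from 0.56 to 0.69 on the log2 scale over all alternatives. Leaving out any 1 library kept the direction and the call.

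The chromosomal surroundings of *Gpr183* did not follow it as a whole. *Gpr18*, a receptor gene 36.8 kb away on the same strand, went the other way, from 437 ± 21.3 CPM to 280 ± 23.9 CPM (log2 fold change -0.64, SE 0.08, adjusted p = 5.8e-10, edgeR's quasi-likelihood test). *Ubac2*, which surrounds *Gpr183* on the opposite strand and was chosen after its values were seen, had 82 and 112 counts against 356 and 315 (log2 fold change 1.84, SE 0.16). *Gpr183* and *Ubac2* share no exon bases, and the deposited counts hold no measure of reads within the intron of *Ubac2*.

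*P2ry10*, at chrX:107088492-107104974 (plus), encodes a receptor for lysophosphatidylserine that is expressed in lymphocytes. It had 675 and 713 counts in NSD1B WT and 2252 and 1913 in NSD1B KO, that is 94.3 and 97.4 CPM against 313 and 284 CPM. The lower NSD1B KO library was still well above both NSD1B WT libraries. The means of 95.9 ± 2.16 CPM and 298 ± 20.3 CPM differed 3.11-fold (log2 fold change 1.64, SE 0.09, 95% interval 1.46 to 1.81, adjusted p = 5.1e-23, edgeR's quasi-likelihood test), with values of 1.42 to 1.71 over the alternatives.

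*P2ry10b* and *Gpr174*, receptor genes near *P2ry10* on chromosome X, were higher too. They were picked by name, and other genes near *P2ry10* were not examined. *P2ry10b*, its paralog 44.0 kb away, had 310 and 328 counts against 806 and 759, with a log2 fold change of 1.35 (SE 0.10, adjusted p = 4.7e-17, edgeR's quasi-likelihood test). *Gpr174*, another receptor for lysophosphatidylserine 151 kb away, had 115 and 114 counts against 336 and 299, with a log2 fold change of 1.52 (SE 0.15, adjusted p = 3.5e-13, edgeR's quasi-likelihood test). The longest transcripts of *P2ry10* and *P2ry10b* align over 982 positions at 82.0% identity and share an exact run of 160 bases, so reads from that stretch could be split between these genes, and the split is uncertain. Both genes were higher, and their sum does not depend on the split if every such read was counted. Whether reads that match both genes were left out is not stated in the sources.

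Between genes, levels were compared per kb of merged exon. In NSD1B WT the order was *Gpr183* at 151 CPM per kb, *Ccr7* at 112, *Cxcr5* at 73.8, *S1pr1* at 50.1, *P2ry10* at 32.2, *S1pr4* at 12.1, *Ccr6* at 1.97, *Cxcr4* at 0.190 and *S1pr3* at 0. No libraries of neighbours in this order overlapped. In NSD1B KO *P2ry10*, at 100.05 CPM per kb with libraries at 95.2 and 105, stood above *Cxcr5* at 76.6 and *S1pr1* at 58.2, which it was below in NSD1B WT. *Cxcr4* at 4.21 CPM per kb stood next after *S1pr4* at 8.26 CPM per kb, and *Ccr6* and *S1pr3* were both at 0. *Gpr183* at 235 and *Ccr7* at 125 CPM per kb remained first and second.

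**Figure D3:**
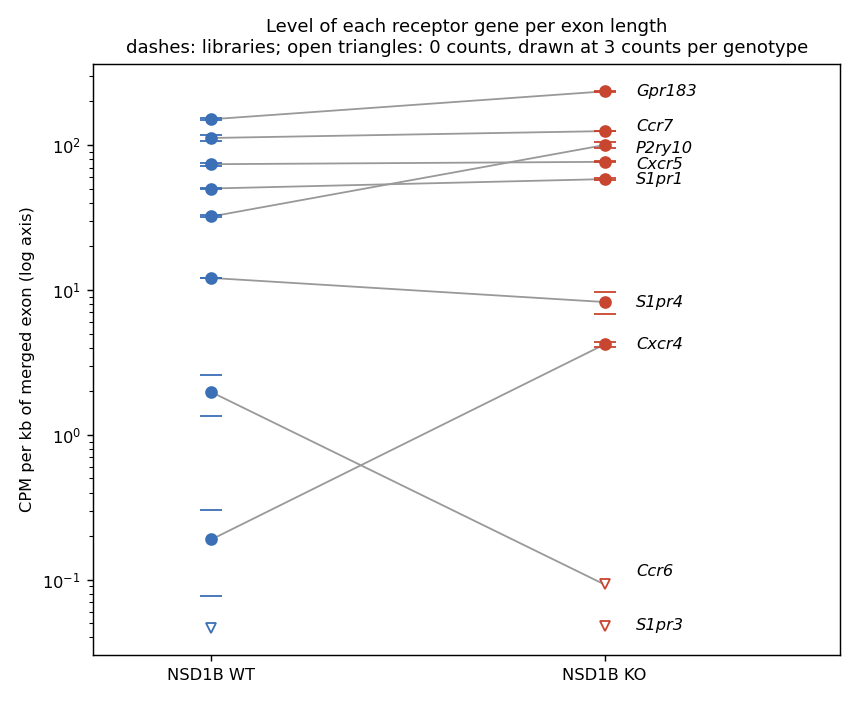
Levels of the 9 receptor genes in CPM per kb of exon on a log axis for NSD1B WT (blue) and NSD1B KO (red), with points at the means, dashes at the libraries and open triangles for genes with 0 counts, drawn at 3 counts per genotype. The line of *P2ry10* crosses those of *Cxcr5* and *S1pr1*, and the lines of *Cxcr4* and *Ccr6* cross.

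The receptors were also set among all tested genes of their level. *Cxcr5*, *Ccr7*, *S1pr1*, *Gpr183* and *P2ry10* belonged to the highest of the 4 groups by level, which starts at 46.2 CPM, and in which 3 of 2914 genes were at 0 in 1 genotype and the median size of the log2 fold change was 0.53. The value of *P2ry10*, 1.64, is above this median, that of *Gpr183*, 0.64, is near it, and those of *Cxcr5*, *Ccr7* and *S1pr1* are below it. *Cxcr4* and *Ccr6* belonged to the lowest group, in which the median size was 3.61, and their values of 4.39 and at least 4.40 in size stand beside that. From the lowest to the highest of the 4 groups, 79.2%, 79.6%, 80.1% and 74.1% of genes passed the threshold in either direction, beside *Cxcr4* and *Ccr6* in the lowest, *S1pr4* in the third and *Gpr183* and *P2ry10* in the highest.

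**Figure D4:**
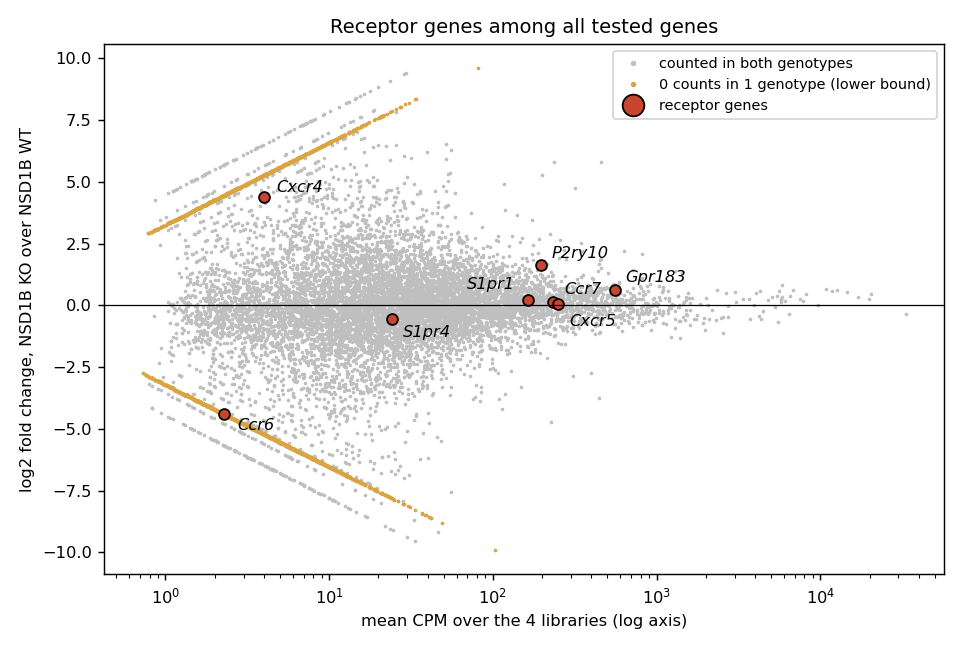
Log2 fold change of NSD1B KO over NSD1B WT against mean CPM on a log axis for all 11657 tested genes, with genes at 0 in 1 genotype drawn in gold at their bound and the receptor genes in red. The spread of all genes widens to the left, where *Cxcr4* and *Ccr6* lie, while *P2ry10* at 1.64 is farther from 0 than the other 4 receptors of the highest level group.

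Other genes of these pathways were taken from 5 lists that hold 104 genes, of which 31 were at 0 in all libraries, 9 were counted but below the filter and 64 were tested. Of the 64, 28 were higher, 25 were lower and 11 did not pass, beside the 37.1% and 41.1% of all tested genes. The lists were chosen with earlier results known and carry no test of their own.

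Among other chemokine receptors, 6 of 19 were tested, of which 3 were higher and 3 were lower, with a median log2 fold change of -0.84, genes at 0 entering at their bound, against -0.10 over all tested genes. *Ccr1*, a receptor of inflammatory chemokines, was higher at 85.7 ± 3.99 CPM and 125 ± 9.2 CPM. *Ccr2*, the receptor for CCL2 that monocytes carry, was lower, with 115 and 110 counts against 21 and 25. *Ackr4*, which removes CCL19 and CCL21, had 29 and 28 counts against 41 and 54, and *Ackr3*, which removes CXCL12, had 41 and 49 against 0 and 0, at least 28.9-fold lower (adjusted p = 0.0243 and 9.7e-12, edgeR's quasi-likelihood test). *Ackr2* and *Ackr3*, like *Ccr6*, passed the filter on low counts only through NSD1B WT, and *Xcr1* passed it only through NSD1B KO. These genes had to differ, so the tally and the median of this list are in part set by the filter.

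Among other receptors for lipids and nucleotides, 16 of 26 were tested, of which 10 were higher, 4 were lower and 2 did not pass, with a median log2 fold change of 1.60. *P2ry2*, *P2ry12*, *P2ry13* and *Cysltr1* passed the filter on low counts only through NSD1B KO, and *Gpr55* and *Ptafr* only through NSD1B WT. These genes had to differ, so the tally and the median are in part set by the filter. *Lpar6*, a receptor for lysophosphatidic acid, rose from 14.1 ± 0.749 CPM to 107 ± 2.12 CPM (log2 fold change 2.93, SE 0.12, adjusted p = 7.2e-27, edgeR's quasi-likelihood test). *Gpr18*, *P2ry10b* and *Gpr174*, given above, are the other 3 of the highest level. *S1pr2*, the S1P receptor that confines B cells to germinal centres, was at 0 in all 4 libraries and was singled out after its values were seen.

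Of 32 genes that carry or end the signal of these receptors, 26 were tested, of which 11 were higher, 12 were lower and 3 did not pass, with a median of -0.22. Among them *Rgs13*, *Grk5* and *Plcb3* passed the filter on low counts only through NSD1B KO, and *Rgs10* and *Pik3r5* only through NSD1B WT, so these had to differ. *Gnai2*, the main inhibitory G protein alpha subunit behind chemokine receptors in lymphocytes, fell from 119 ± 16.1 CPM to 62.3 ± 0.108 CPM (log2 fold change -0.93, adjusted p = 7.9e-12, edgeR's quasi-likelihood test), while the related *Gnai3* rose from 138 ± 2.14 CPM to 181 ± 9.08 CPM. *Gna13*, whose product acts against migration, rose from 28.6 ± 2.27 CPM to 73.7 ± 5.13 CPM (log2 fold change 1.37, adjusted p = 7.1e-15, edgeR's quasi-likelihood test). *Arhgef1*, the guanine nucleotide exchange factor directly downstream of it, fell from 66.8 ± 3.43 CPM to 36.3 ± 3.86 CPM. These neighbours in the signal therefore did not move together. The motility genes *Rac2* (576 ± 12.9 CPM to 342 ± 27.3 CPM) and *Dock2* (161 ± 2.57 CPM to 132 ± 11.3 CPM) fell, and so did *Rgs19*, which ends G protein signals (243 ± 4.81 CPM to 165 ± 4.75 CPM). *Rgs1*, a regulator of chemokine responses in B cells, was at 0 in all libraries. How the reads were counted is not stated in the sources, and whether a count of 0 here, or the few counts of *Cxcr4* in NSD1B WT, reflects the RNA of these cells or the counting was not tested.

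Of 10 genes that control these receptors or act in entry to lymphoid tissue, all were tested, of which 1 was higher, 5 were lower and 4 did not pass, with a median of -0.20. *Klf2*, the transcription factor that holds up *S1pr1* in lymphocytes, was at 257 ± 16.9 CPM and 265 ± 17.1 CPM (log2 fold change 0.04, adjusted p = 0.625, edgeR's quasi-likelihood test). *Cd69*, whose product takes S1PR1 off the surface, was at 734 ± 0.625 CPM and 880 ± 58.6 CPM, under the limit of 1.2-fold (log2 fold change 0.26, adjusted p = 0.00181, edgeR's quasi-likelihood test). The integrin genes *Itgb7* (148 ± 3.76 CPM to 72.1 ± 4.91 CPM) and *Itga4* (186 ± 4.42 CPM to 147 ± 3.82 CPM), whose products pair for entry to the gut, both fell, and *Adgre5*, which encodes the adhesion receptor CD97, fell from 281 ± 17.1 CPM to 157 ± 14.2 CPM.

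Of 17 ligands and enzymes that make or remove ligands, 11 were at 0 in all libraries, among them *Cxcl12*, *Ccl19*, *Ccl20* and *Ccl21a*, which are known to come mainly from stromal or epithelial cells. Of the 6 tested, 3 were higher, 1 was lower and 2 did not pass, with a median of 0.57. *Cxcl13*, the ligand of CXCR5, was counted in these sorted cells and rose from 134 ± 2.82 CPM to 279 ± 23.4 CPM (log2 fold change 1.06, adjusted p = 3.3e-16, edgeR's quasi-likelihood test). *Sgpl1*, the lyase that breaks down S1P, had 18 and 24 counts in NSD1B WT and 536 and 425 in NSD1B KO (log2 fold change 4.56, SE 0.19, adjusted p = 4.7e-27, edgeR's quasi-likelihood test). *Sgpp1*, an S1P phosphatase, rose from 16.9 ± 2.62 CPM to 24.9 ± 1.05 CPM, and *Plpp3*, a phosphatase of lipid phosphates, fell from 92 and 102 counts to 0 and 0, at least 62.3-fold. *Plpp3* passed the filter only through NSD1B WT and so had to differ. The stromal markers named above were at 0, while *Pecam1*, also carried by blood cells, was at 72.6 CPM and 85.7 CPM.

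**Figure D5:**
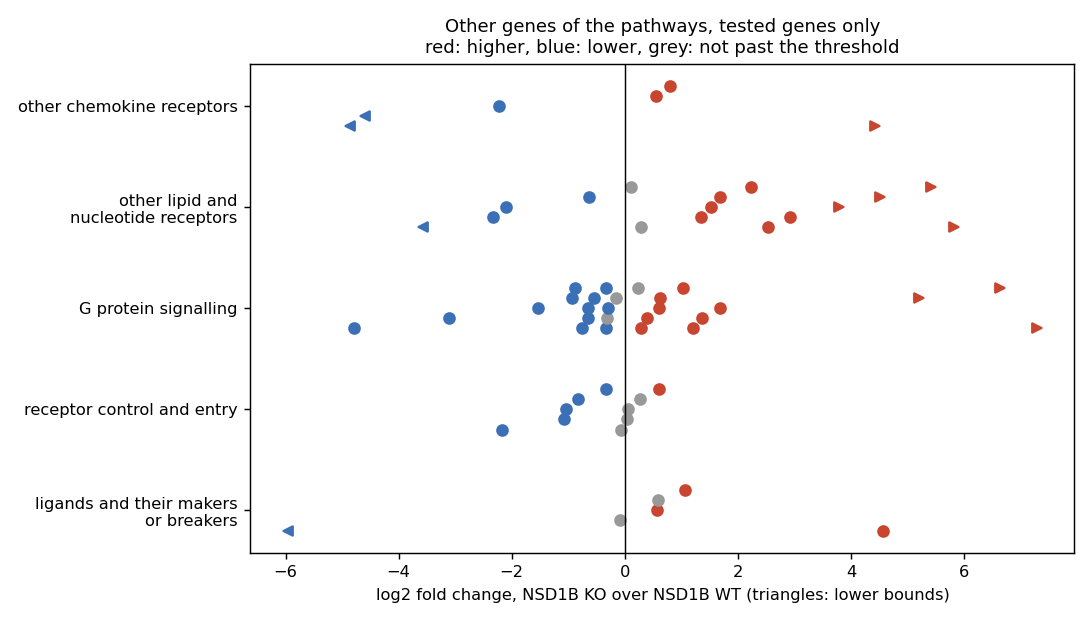
Log2 fold change of NSD1B KO over NSD1B WT for the 64 tested genes of the 5 lists, 1 point per gene, with red for higher, blue for lower, grey for not past the threshold and triangles for bounds of genes at 0 in 1 genotype. Points lie on both sides of 0 in every list, and the genes drawn as triangles passed the filter on low counts only through 1 genotype.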

How the data were processed

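RNA-seq of B220+ splenic B cells was deposited as 4 libraries, 2 of NSD1B WT and 2 of NSD1B KO, grouped by their genotype labels. What the authors deposited are raw integer counts for each gene, without normalization, made from paired-end reads. The Methods and the submitters' processing notes name Bowtie2, mm10 and Cufflinks. No FPKM value was used. How reads were counted, and whether by strand, is not stated in those sources. Counts entered as falling on no feature were 44.3% to 44.6% of the total. These and any other counts not assigned to a gene were left out. Positions and exon lengths came from GENCODE M21, in which 55141 of the 55401 identifiers (99.5%) were found.

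Counts were scaled by TMM in edgeR 4.0.16 (R 4.3.3) and filtered by filterByExpr (minimum count 10, minimum total 15), which left 11657 genes. The genotypes were compared over all 4 libraries by the quasi-likelihood test of edgeR, adjusted over all tested genes after Benjamini and Hochberg, at an adjusted p below 0.05 and a fold above 1.2, as in the Methods, where p is taken as adjusted. The common dispersion was 0.0054. For genes at 0 in a genotype, 3 counts over its libraries served as the limit. Errors are SD over 2 libraries, and intervals are at 95%. With 2 against 2, an exact permutation test cannot reach 0.05 and was not run. The procedure was tested on simulated data. Replicate libraries differed by more than sampling noise (mean chi-square per gene 2.94 in NSD1B WT and 3.79 in NSD1B KO).

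The receptors and lists were chosen with earlier results of these data known. Named were the receptors, *Nsd1*, of each list at most 4 genes past the threshold with the highest mean CPM, a core of *Gnai2*, *Gna13*, *Arhgef1*, *Rgs1*, *Klf2* and *Cd69*, the 3 genes most like *Cxcr4*, and cell type markers. *Ubac2*, *S1pr2*, the ligands at 0 and the genes named for passing the filter only through 1 genotype fall outside this rule. Some genes that the rule names are not reported here. A total of 17 alternatives were run, with DESeq2 1.42.0 and limma 3.58.1 among the tools. Exon length and GC trends were removed by loess (span 0.5). Promoters were read from a RefSeq table of GRCm38.p6 and scanned in Python 3.11.15. Flow cytometry and Q-PCR of the study were not analysed here.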

Additional observations from a re-analysis of the deposited data

How the results depend on the processing

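Over 17 alternatives of scaling, test, filter, threshold and libraries, *Cxcr4*, *Ccr6*, *Gpr183* and *P2ry10* kept direction and call wherever they were tested (edgeR, DESeq2 or voom). *Cxcr4* ran from 3.79 to 5.62 and *Ccr6* from -4.78 to -3.36 on the log2 scale, and with at least 1 CPM required in all 4 libraries neither could be tested. That filter left 8334 genes, with 2884 higher and 2958 lower, and 1 receptor lower. Removing the trend with exon length and GC content moved the median of all genes from -0.10 to 0.08 and gave 6 receptors higher and 1 lower, with *Cxcr5* at 0.41, *Ccr7* at 0.57 and *S1pr1* at 0.40 now past the threshold and *S1pr4* at -0.12 no longer past it. The cause was not tested. With a replicate block as well, the values were 6 and 1 receptors, 0.41, 0.57, 0.40 and -0.13. With no fold limit *S1pr1* passed at 0.22. At an adjusted p below 1e-05 and a log2 change above 0.5, *S1pr4* at -0.56 did not pass, leaving 1 receptor lower. Leaving out 1 library gave 3 receptors higher each time, 1 to 2 lower, and *S1pr4* between -0.82 and -0.32, its call lost without NSD1B KO replicate 1 (-0.32). Where a genotype was left with 1 library, that library was assumed to vary like the others.

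The replicate numbers are shared by label only. Deviations of same-numbered libraries correlated at 0.065 across genes, so the numbers were not taken as pairs. With the replicate block 3 receptors were higher and 2 lower, 4255 genes were higher and 4705 lower, and *Cxcr4* was at 4.41. The block changed no call among the receptors. Depth limits *Cxcr4*, *Ccr6* and *S1pr3*, each at a limit of 3 counts or within a few counts of it in 1 or both genotypes.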
